A study of Homo sapiens with 6 samples.

Results

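The genes described here encode actin, non-muscle myosin II, tropomyosin and the proteins that bind, nucleate, cap, cross-link or disassemble actin filaments. They are a list of 49 gene symbols chosen by name, and 45 of them, of 19775 genes in all, had a probe set that names 1 gene alone. Each gene was represented by the probe set of that kind with the highest mean over the 6 arrays. ACTG1, the cytoplasmic gamma actin, was named only together with other genes, on 9 probe sets, and TPM3, ACTR2 and FLNA were matched to no probe set. These 4 genes were not analysed here.

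Actin filaments form the cortex and the stress fibres of keratinocytes and attach to adherens junctions through catenins. Filaments grow from monomers held by profilin and thymosin, are branched by the Arp2/3 complex, lengthened by formins and Ena/VASP proteins, and taken apart by cofilin. Non-muscle myosin II pulls on filaments that alpha-actinin cross-links and tropomyosin coats. Transcription of many of these genes depends on serum response factor (SRF), whose coactivators of the MRTF family are held inactive by free actin monomers.

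The cells were HaCaT, a spontaneously immortalised human epidermal keratinocyte line, without a genetic change or added agent named in the labels. Negative pressure arrays (n = 3) held RNA of cells kept for 12 h in an incubator at a gradient of 125 mmHg, and ambient pressure arrays (n = 3) held RNA of control cells. The replicates are called biological in the labels, which do not say how separate the cultures were. Values are log2 array signals, so a difference of 1 is a 2-fold change. Levels of different genes are not compared, because each probe set has its own response. A signal per array cannot separate RNA per cell from the make-up of the culture.

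The replicate 3 arrays of both groups stood apart from the other 4 arrays. Pearson's r between arrays of 1 group, across probe sets, was 0.997 and 0.996 for replicates 1 and 2, and 0.989 to 0.992 for pairs with replicate 3. The first principal component of all genes (42.2% of the variance) held that offset, and the second (30.9%) separated the pressures. The 8 measured keratinocyte markers averaged 10.28 to 10.38 over the ambient arrays and 10.39 to 10.49 over the negative pressure arrays. The corresponding averages over fibroblast, melanocyte, endothelial, leukocyte and muscle markers lay between 3.11 and 4.92. Without the block, 1 marker had a signal that changed (limma), the endothelial CDH5, at 4.81 ± 0.09 and 4.01 ± 0.21 (SD, n = 3 each; difference -0.80, adjusted p = 0.0325), values below the median gene mean of 4.997. With the block DSG3, a desmosomal cadherin of keratinocytes, also passed, at 8.04 ± 0.28 and 8.67 ± 0.22 (SD, n = 3 each; difference 0.63, limma adjusted p = 0.153, or 0.0146 with the block). The part of these markers in the results on actin genes was not tested.

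The comparison asked which transcripts of the actin cytoskeleton differed after 12 h of negative pressure. Of the 45 measured genes, 0 had a limma adjusted p under 0.05, both without the replicate number as a block and with it. Over all genes 0.92% passed without the block and 4.94% with it. At a looser adjusted p of 0.1 without the block the count was also 0, against 1.78% of all genes. The lowest adjusted p among the 45 genes was 0.291 without the block and 0.0696 with it. At an unadjusted p under 0.05, limma gave 4 of the 45 genes (8.89%), MYL12A, PFN2, LASP1 and ACTN4, against 11.7% of all genes. With the block there were 9 (20.0%), against 18.6%.

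The differences ran from -0.47 to 0.39, at most 1.38-fold, with 22 above 0, 23 below 0 and a median of -0.00, beside 0.01 over all genes. The median size of a difference, regardless of sign, was 0.0988 for these genes and 0.118 for all genes. The arrays of the 2 groups did not overlap for 5 of the 45 genes (11.1%), against 17.3% of all genes. PFN2 and CFL1 were higher under negative pressure on every array, and MYL12A, CFL2 and ACTN1 lower. Within the replicate pairs, 19 of the 45 genes (42.2%) kept 1 sign in all 3 pairs, against 38.8% of all genes.

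The intervals show how large a change these arrays could still hold. For 45 of the 45 genes the 95% limma interval of the difference, not adjusted over genes, lay within 2-fold in either direction. For 35 (77.8%) it lay within 1.5-fold, as for 77.1% of all genes. The 10 genes with a wider interval were MYL9, MYL12A, CFL2, PFN2, CAPZA2, ACTN1, ACTN4, LASP1, CNN3 and CALD1. For these, the interval still held a change of more than 1.5-fold in 1 direction. Of the 45 genes, 43 had a mean above the median gene mean. The other two were TPM2, at 4.06, and MYL9, at that median.

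**Figure D1:**
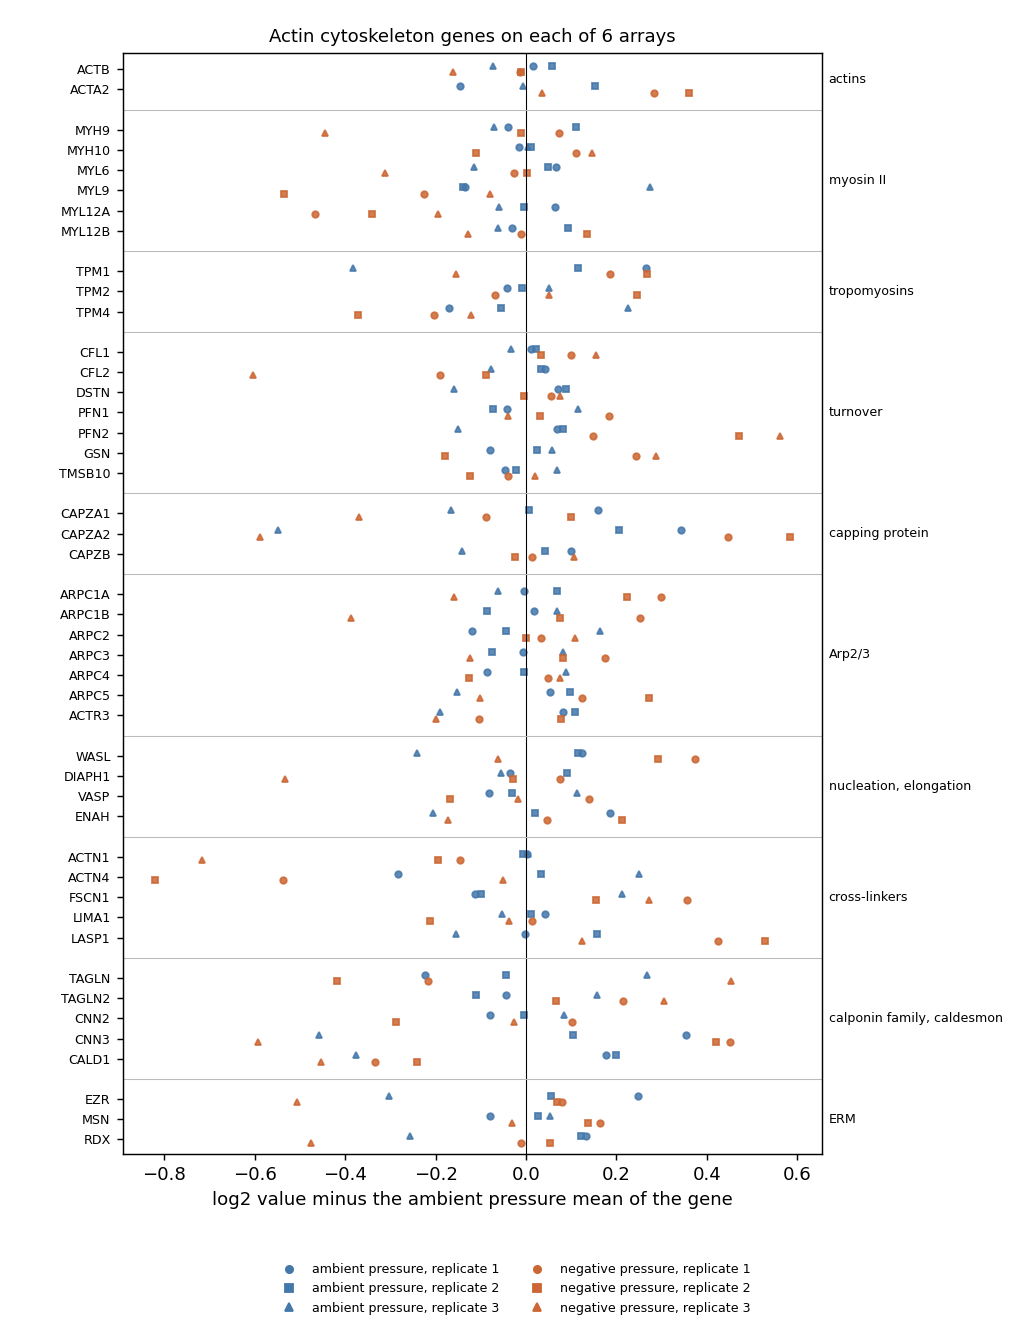
Log2 value of each of the 45 genes on each array, minus the gene's ambient pressure mean (x axis), with genes in rows by role, colour for the pressure and 1 symbol per replicate number. The groups of PFN2, CFL1, MYL12A, CFL2 and ACTN1 do not overlap, and the replicate 3 symbols lie lowest in both groups for TPM1 and EZR and highest in both for ACTN4, MYL9 and TAGLN.

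**Figure D2:**
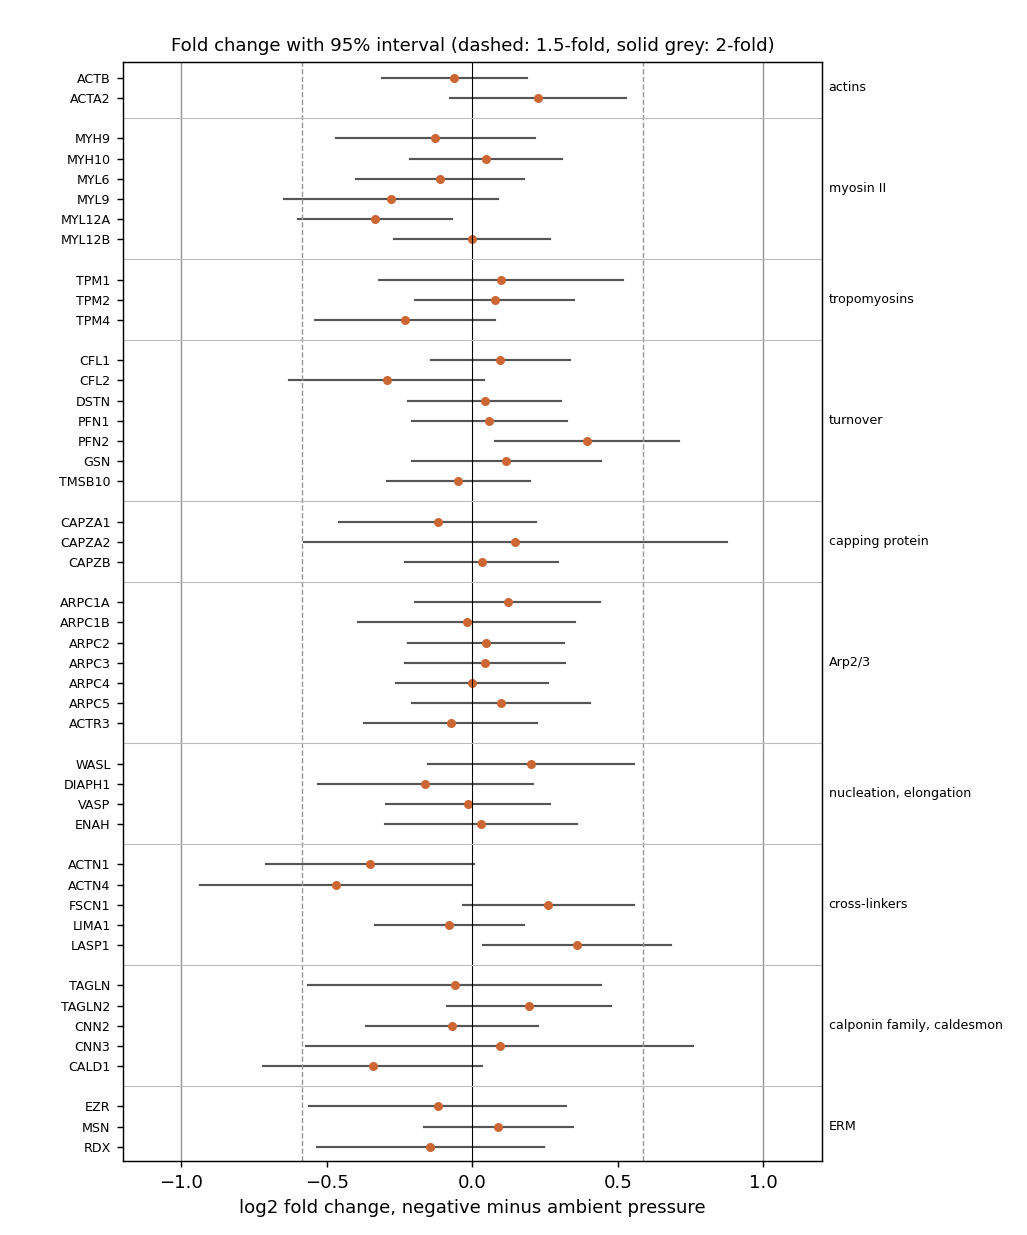
Difference in log2 signal, negative minus ambient pressure, for the 45 measured genes ordered by role, with 95% limma intervals as horizontal bars (n = 3 arrays per group), dashed lines at 1.5-fold and grey lines at 2-fold. Every interval lies inside the 2-fold lines, 35 lie inside the 1.5-fold lines, and the estimates run from -0.47 for ACTN4 to 0.39 for PFN2.

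Neither of the 2 measured actins passed the test. ACTB, the cytoplasmic beta actin, measured 13.25, 13.29 and 13.16 on the ambient arrays and 13.22, 13.22 and 13.07 on the negative pressure arrays. The groups overlapped, and the difference was -0.06 (SE 0.11, 95% interval -0.31 to 0.19, limma adjusted p = 0.912). The brightest ACTB probe set has the suffix x, which Affymetrix gives to probe sets that can hybridise with related transcripts, so its signal can include other actins. The 3 ACTB control probe sets differed by -0.02 at the 3' end, -0.08 in the middle and -0.17 at the 5' end, with exact two-sided permutation p = 0.6, 0.4 and 0.2. With 3 arrays a group that test cannot go below 0.1. ACTA2, the smooth muscle alpha actin, measured 4.92, 5.22 and 5.06 on the ambient arrays and 5.35, 5.43 and 5.11 on those under negative pressure. Replicate 3 under negative pressure lay among the ambient arrays, and the difference was 0.23 (SE 0.13, interval -0.08 to 0.53, limma adjusted p = 0.604).

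The 45 genes held 6 chains of non-muscle myosin II. Of these, 5 gave a lower mean under negative pressure, with a median of -0.12, and 0 passed the test. MYH9, the heavy chain of myosin IIA, measured 8.41, 8.56 and 8.38 on the ambient arrays and 8.52, 8.43 and 8.003 on the negative pressure arrays. Only the replicate 3 array under negative pressure was below the ambient range, and the difference was -0.13 (SE 0.15, interval -0.47 to 0.22, limma adjusted p = 0.857). MYH10, the heavy chain of myosin IIB, differed by 0.05 (limma adjusted p = 0.937). Another heavy chain, MYH14, listed with the other regulators described below, was above 0, at 0.09 (limma adjusted p = 0.920). MYL9, a regulatory light chain typical of contractile cells, measured 5.003, 4.997 and 5.41 on the ambient arrays and 4.91, 4.60 and 5.06 on those under negative pressure. The groups overlapped, and the difference was -0.28 (SE 0.16, interval -0.65 to 0.09, limma adjusted p = 0.595).

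MYL12A, a regulatory light chain of non-muscle myosin, had the lowest p of the 45 genes and was singled out after its values were seen. It measured 8.95, 8.88 and 8.82 on the ambient arrays and 8.42, 8.54 and 8.69 on those under negative pressure. All 3 negative pressure arrays lay below all 3 ambient arrays. The difference was -0.33 (SE 0.12, interval -0.60 to -0.07, limma adjusted p = 0.291, or 0.138 with the block). MYL12B, its close paralog, differed by -0.00 (interval -0.27 to 0.27), and MYL6, an essential light chain, by -0.11 (limma adjusted p = 0.849). The difference between MYL12A and MYL12B was not tested.

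Tropomyosins coat the filament and set which myosins and severing proteins can bind to it. TPM1 measured 10.72, 10.57 and 10.07 on the ambient arrays and 10.64, 10.72 and 10.30 on the negative pressure arrays. The replicate 3 arrays were the lowest of both groups, and the difference was 0.10 (SE 0.19, interval -0.32 to 0.52, limma adjusted p = 0.916). TPM2 differed by 0.08 (limma adjusted p = 0.897). TPM4, singled out after its values were seen, measured 8.11, 8.23 and 8.51 on the ambient arrays and 8.08, 7.91 and 8.16 on those under negative pressure. Its groups overlapped, with a difference of -0.23 (SE 0.14, interval -0.54 to 0.08, limma adjusted p = 0.605).

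Among the 7 measured genes of monomer binding and filament turnover, 5 means were higher under negative pressure and 2 lower, with a median difference of 0.06 and 0 past the test. CFL1, the cofilin of non-muscle cells, measured 12.29, 12.30 and 12.25 on the ambient arrays and 12.38, 12.32 and 12.44 on those under negative pressure. Every negative pressure array was above every ambient array, by a difference of 0.10 (SE 0.11, interval -0.14 to 0.33, limma adjusted p = 0.839). CFL2, the cofilin of muscle, measured 7.88, 7.87 and 7.76 on the ambient arrays and 7.65, 7.75 and 7.24 on those under negative pressure. Here every negative pressure array was below every ambient array, with a difference of -0.29 (SE 0.15, interval -0.63 to 0.04, limma adjusted p = 0.505). The contrast between CFL1 and CFL2 was itself not tested, and CFL2 was singled out after its values were seen.

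PFN2, a profilin that delivers monomers to growing filament ends, had the most positive difference of the 45 genes. It measured 6.63, 6.64 and 6.41 on the ambient arrays and 6.71, 7.03 and 7.12 on those under negative pressure. The groups did not overlap, and their nearest arrays were at 6.64 and 6.71. The difference was 0.39, or 1.31-fold (SE 0.14, interval 0.08 to 0.71, limma adjusted p = 0.298, or 0.117 with the block). PFN1, the widely expressed profilin, differed by 0.06, the severing protein GSN by 0.12, the depolymerising factor DSTN by 0.04 and the monomer-binding TMSB10 by -0.05, with limma adjusted p from 0.864 to 0.949.

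Capping protein, a heterodimer that closes the fast-growing end of the filament, gave differences of -0.12 for CAPZA1, 0.15 for CAPZA2 and 0.03 for CAPZB, with limma adjusted p from 0.865 to 0.963. CAPZA2 is shown because it varied most among arrays of 1 group, and was singled out for that. It measured 10.07, 9.93 and 9.18 on the ambient arrays and 10.17, 10.31 and 9.14 on those under negative pressure. Both replicate 3 arrays lay far below the others of their group, and the 95% interval of the pressure difference, -0.58 to 0.87, was wide.

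The Arp2/3 complex, which starts a new filament as a branch on an old one, gave small differences. The 7 measured subunits differed by -0.07 to 0.12, with limma adjusted p from 0.855 to 0.999, and for 7 of 7 the interval lay within 1.5-fold. ACTR3, like the unmeasured ACTR2 an actin-related subunit of the complex, was singled out because another of its probe sets stood apart. It measured 11.35, 11.38 and 11.08 on the ambient arrays and 11.17, 11.35 and 11.07 on the negative pressure arrays. The groups overlapped, and the difference was -0.07 (SE 0.13, interval -0.37 to 0.22). The nucleation and elongation factors differed by 0.20 for WASL, which activates Arp2/3, -0.16 for the formin DIAPH1, -0.02 for VASP and 0.03 for ENAH, with 4 of 4 intervals within 1.5-fold.

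The cross-linking and bundling proteins held the widest span of differences among the roles, -0.47 to 0.36. ACTN4, an alpha-actinin, had the most negative difference of the 45 genes. It measured 8.92, 9.23 and 9.45 on the ambient arrays and 8.66, 8.38 and 9.15 on those under negative pressure. Each negative pressure array lay below the ambient array of the same number, although the groups overlapped. The difference was -0.47, or 1.38-fold lower (SE 0.21, interval from -0.94 to just under 0, limma adjusted p = 0.427, or 0.0696 with the block).

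ACTN1, the other non-muscle alpha-actinin, measured 11.23, 11.22 and 11.23 on the ambient arrays and 11.08, 11.03 and 10.51 on those under negative pressure. The ambient arrays were nearly equal, all negative pressure arrays were lower, and replicate 3 was the lowest of these. The difference was -0.35 (SE 0.16, interval -0.71 to 0.01, limma adjusted p = 0.437, or 0.165 with the block). LASP1, a LIM and SH3 protein of focal adhesions and membrane ruffles, measured 10.85, 11.00 and 10.69 on the ambient arrays and 11.27, 11.38 and 10.97 on those under negative pressure. Within each replicate number the negative pressure array was the higher, by an average of 0.36, or 1.28-fold (SE 0.14, interval 0.04 to 0.68, limma adjusted p = 0.363, or 0.0841 with the block). FSCN1, the fascin that bundles filaments in protrusions, measured 8.97, 8.99 and 9.30 on the ambient arrays and 9.44, 9.24 and 9.36 on those under negative pressure. One ambient array reached into the negative pressure range, and the difference was 0.26 (SE 0.13, interval -0.03 to 0.55, limma adjusted p = 0.501). LIMA1, which stabilises filaments, differed by -0.08.

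Calponin-family proteins and caldesmon bind along filaments, and caldesmon restrains myosin. CALD1, the caldesmon, measured 10.39, 10.41 and 9.84 on the ambient arrays and 9.88, 9.97 and 9.76 on those under negative pressure. The ambient replicate 3 array lay at the negative pressure level, and the difference was -0.34 (SE 0.17, interval -0.72 to 0.03, limma adjusted p = 0.483). TAGLN, the transgelin of smooth muscle and a known SRF target, measured 5.94, 6.12 and 6.43 on the ambient arrays and 5.95, 5.74 and 6.62 on those under negative pressure. Its replicate 3 arrays were the highest of both groups, and the difference was -0.06 (SE 0.22, interval -0.56 to 0.44, limma adjusted p = 0.962). TAGLN2 differed by 0.20, CNN2 by -0.07 and CNN3 by 0.09.

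The ERM proteins link filaments to the plasma membrane. EZR, the ezrin of epithelial surfaces, measured 10.22, 10.02 and 9.66 on the ambient arrays and 10.05, 10.03 and 9.46 on those under negative pressure. The replicate 3 arrays were again the lowest of both groups, and the difference was -0.12 (SE 0.20, interval -0.56 to 0.32, limma adjusted p = 0.901). MSN differed by 0.09 and RDX by -0.14, with 0 of the 3 genes past the test.

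For most of these genes the replicate 3 arrays were farther from the others than the pressures were from each other. The offset of replicate 3, its signal minus the mean of replicates 1 and 2 of its group, was larger in size than the pressure difference for 33 of the 45 genes (73.3%), against 60.0% of all genes. Its median size was 0.224 here, 0.167 over all genes and 0.221 over the 82 other regulators of actin compared below. It had the same sign at both pressures for 32 genes (71.1%, against 67.1%), of which 20 were lower and 12 higher in replicate 3. On both sets of arrays CAPZA2 had the lowest offsets, -0.82 on the ambient arrays and -1.10 on those under negative pressure, followed by CNN3 with -0.69 and -1.03. By the mean of both offsets TAGLN had the highest, 0.40 and 0.77, followed by ACTN4 with 0.38 and 0.63. Among the 45 genes alone, the first principal component (62.3% of the variance) set the replicate 3 arrays, at 1.26 and 1.58, apart from the others, at -1.19 to -0.30. The second (21.8%) separated ambient arrays, at -0.63 to -0.58, from negative pressure arrays, at 0.39 to 0.79. The excess of the 3' over the 5' control probe set for ACTB, a sign of RNA quality, was 0.27 and 0.42 on the replicate 3 arrays at ambient and negative pressure. On the other four arrays it was 0.64 to 0.85. For GAPDH, the other control gene, replicate 3 was not set apart in this way. The same excess was 0.155 and 0.0862 on the replicate 3 arrays at ambient and negative pressure, and 0.0533 to 0.213 on the others. The part of RNA quality in the offset was not tested.

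**Figure D3:**
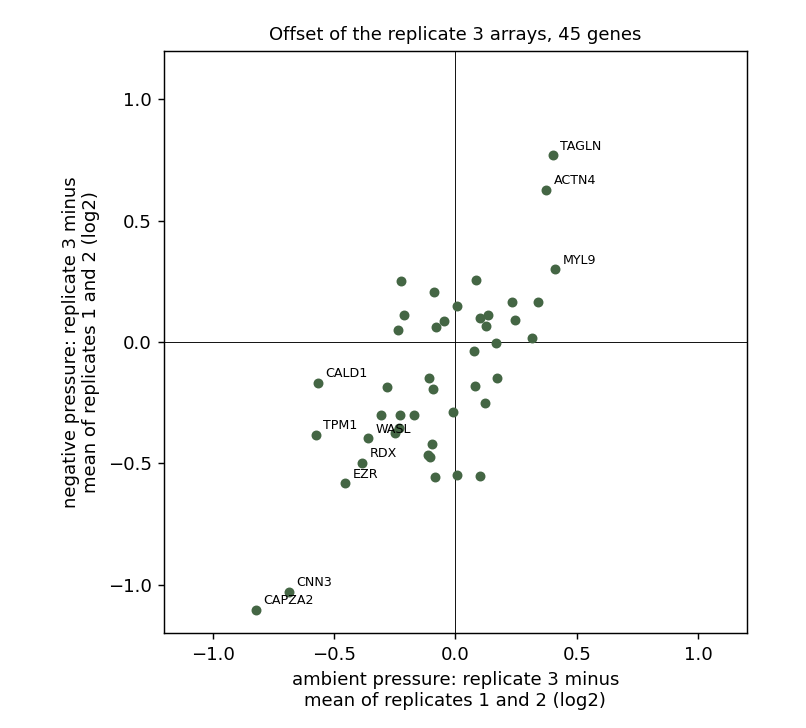
Offset of replicate 3 from the mean of replicates 1 and 2, in log2 units, under ambient pressure (x axis) and under negative pressure (y axis), 1 point for each of the 45 genes. For 32 genes the offset has the same sign at both pressures, from CAPZA2 and CNN3 at the low end to TAGLN and ACTN4 at the high end.

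Most of these genes are read by more than 1 probe set. Where on the transcript each reads is not given in the sources used here. The 45 genes had 134 single-gene probe sets, of which 90 lay above the median gene mean, and 33 genes had several. The differences had 1 sign over all probe sets for 12 of these 33 genes and both signs for 21. Those counts include the 44 probe sets at or below the median gene mean. A probe set above that median had the opposite sign to the brightest for MYL6, DSTN, CAPZA2, CAPZB, ARPC4, WASL, ENAH, FSCN1, CNN3 and RDX. For the rest of the 21 genes, among them CFL1, GSN and CALD1, only probe sets at or below that median had it. In limma over every probe set, 1 of the 134 passed an adjusted p of 0.05 (0.48% of all probe sets did), and 2 passed with the block (2.27% of all). At an unadjusted p under 0.05 there were 11 (8.21%, against 9.86%). Of 26 genes with several probe sets above the median gene mean, 10 had replicate 3 offsets of both signs among these.

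The probe set that passed reads ACTR3, and was singled out after its values were seen. On 228603_at the signal was 5.73, 5.69 and 5.49 on the ambient arrays and 4.28, 4.70 and 4.66 on those under negative pressure. The groups were far apart, and this signal fell by 1.09, or 2.13-fold (SE 0.15, interval -1.42 to -0.76, limma adjusted p = 0.0253, or 0.00712 with the block). Its mean over the 6 arrays, 5.09, was just above the median gene mean of 4.997, and every negative pressure array was below that median. The other four ACTR3 probe sets differed by -0.59 on the dim 239170_at, -0.35 on 200996_at, -0.25 on 213102_at and -0.07 on 213101_s_at, with limma adjusted p from 0.22 to 0.94. All 5 were below 0, and whether their differences were unequal was not tested. Which transcripts 228603_at reads is not given in the sources used here. ENAH, an elongation factor of the Ena/VASP family also singled out after its values were seen, had the one that passed with the block alone. Its 1553672_at measured 5.72, 5.89 and 5.37 on the ambient arrays and 5.41, 5.06 and 4.58 on those under negative pressure, a difference of -0.64 (SE 0.22, limma adjusted p = 0.317, or 0.0413 with the block). The other five ENAH probe sets ran from -0.28 to 0.27.

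Some genes kept a direction over many probe sets without passing the test. CALD1 was below 0 on 10 of 11 probe sets, from -0.48 to 0.08. On its 201616_s_at the signal was 7.50, 7.47 and 7.47 on the ambient arrays and 7.15, 6.99 and 6.96 on those under negative pressure, with a difference of -0.45 (limma adjusted p = 0.156). TPM4 was below 0 on 5 of 5 probe sets, from -0.46 to -0.05, and TPM1 above 0 on 6 of 6, from 0.03 to 0.21. Beside the brightest, only 3 of 10 CALD1, 2 of 4 TPM4 and 3 of 5 TPM1 probe sets lay above the median gene mean. Each of these kept the sign of the brightest. Probe sets of 1 gene share the RNA of the same arrays and are not replicates. FSCN1, by contrast, gave 0.26 and -0.08, and CNN3 0.09 and -0.33, on their probe sets.

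**Figure D4:**
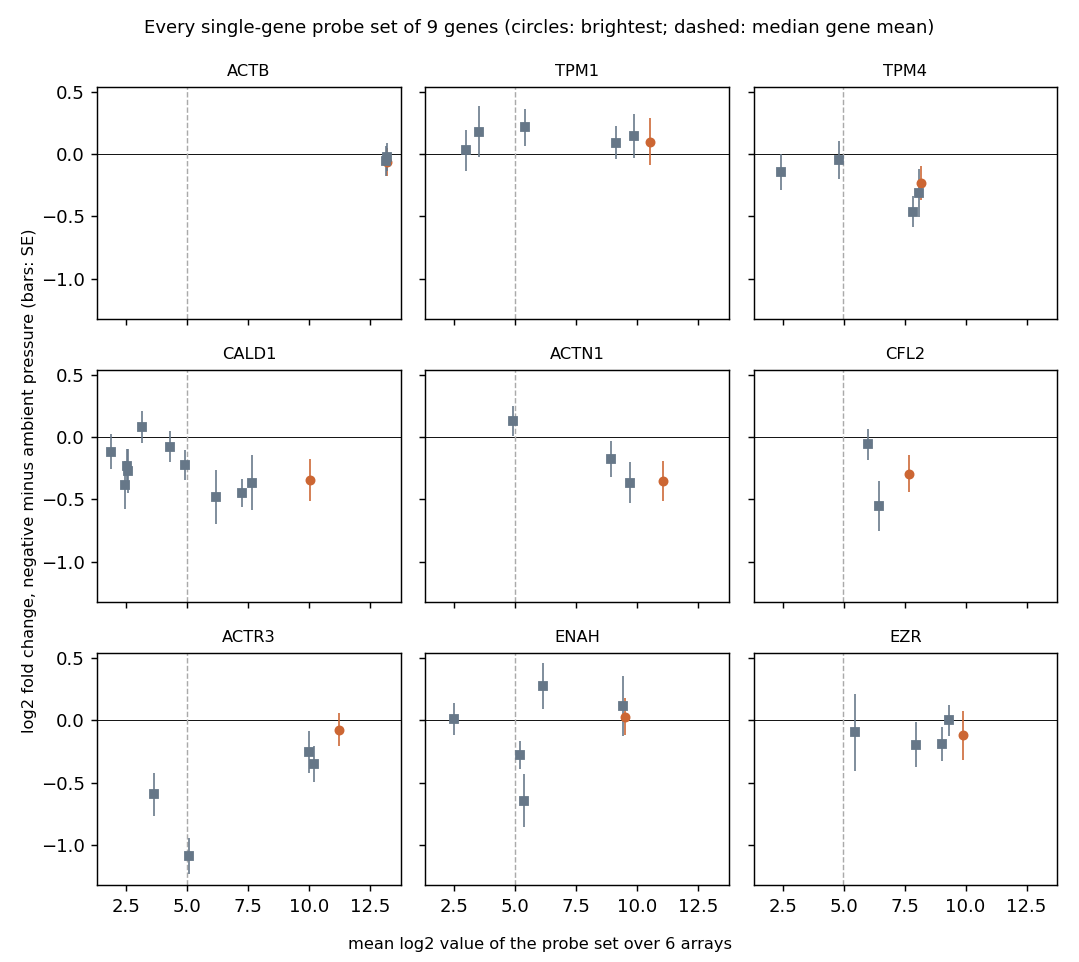
Difference in log2 signal, negative minus ambient pressure (y axis, bars are SE), against the mean log2 signal over the 6 arrays (x axis) for every single-gene probe set of 9 genes; circles are the brightest probe set of each gene and the dashed line is the median gene mean. The ACTR3 probe set at -1.09 lies apart from the other four, the TPM1 probe sets lie above 0, and those of TPM4 lie below 0.

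SRF binds the CArG box, an element whose consensus is symmetric, so that a match on 1 strand is a match on the other. In RefSeq promoter windows of GRCh38.p14, each of 300 bases from 250 before to 50 after a transcript start, 43 of the 49 genes had at least 1 window. A CArG box was found in 5 of their 73 windows (6.85%), against 454 of all 35116 windows (1.29%). It is a match of letters, and binding was not measured. Of the 5 genes with a box, ACTG1 and FLNA were not measured and ACTN1, CNN2 and TPM4 were. These 3 are shown as the measured genes whose windows hold the box, with 45 bases on each side, 5′ to 3′ on the gene's strand, and the box in capitals:
ACTN1, chr14:68977683-68977782, minus strand: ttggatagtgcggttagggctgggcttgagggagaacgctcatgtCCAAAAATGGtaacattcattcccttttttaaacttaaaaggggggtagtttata
CNN2, chr19:1026474-1026573, plus strand: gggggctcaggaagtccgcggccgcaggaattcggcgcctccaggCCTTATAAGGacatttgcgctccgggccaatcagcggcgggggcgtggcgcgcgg
TPM4, chr19:16067320-16067419, plus strand: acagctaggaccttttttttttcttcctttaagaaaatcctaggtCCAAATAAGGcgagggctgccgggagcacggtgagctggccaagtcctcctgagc
The box began 171, 89 and 173 bases before the start, in 1 of 4 windows of ACTN1 and 1 of 3 of TPM4. The differences in signal were -0.35 for ACTN1, -0.07 for CNN2 and -0.23 for TPM4, with a median of -0.23, and 0 of the 3 passed the test. The 36 measured genes with a window and no box had a median of 0.04. With 3 genes, these medians were not compared.

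Other regulators of actin were compared in the same way. Of 93 other genes in 5 lists, 82 were measured, 41 with a difference above 0 and 41 below, with a median of -0.00. None passed in limma without the block, against 0.92% of all genes. At an unadjusted p under 0.05 there were 6 (7.32%, against 11.7%), and 10 (12.2%, against 17.3%) had groups that did not overlap. With the block 2 passed, where 4.94% of all genes did, both with lower signal under negative pressure, of which 1 is described. DIAPH3, a formin, measured 8.97, 8.94 and 8.86 on the ambient arrays and 8.37, 8.52 and 8.40 on those under negative pressure. Its groups were clearly apart on every array, with a difference of -0.50, or 1.41-fold (SE 0.11, interval -0.74 to -0.25, limma adjusted p = 0.0851, or 0.0246 with the block).

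Within 4 of these lists the differences went both ways. Of 13 genes of the SRF pathway and its targets, 5 were above 0 and 8 below. SRF was at -0.18, MRTFA at 0.08 and MRTFB at -0.03. Of the ternary complex factors listed, ELK4 was at -0.41 and ELK1 at 0.18, and only for ELK1 did the groups not overlap. Of 11 genes listed as Arp2/3 activators and WAVE complex, 6 were above 0 and 5 below, with CYFIP1, a WAVE complex subunit, at -0.40. That list also holds ARPIN, an inhibitor of Arp2/3, at -0.11, and ARPC5L, a subunit of Arp2/3, at -0.11. Of 29 other filament proteins, 14 were above 0 and 15 below, with the bundler LCP1 at -0.30 and the spectrin SPTBN1 at 0.31. Of 9 genes listed as unconventional myosins, 5 were above 0 and 4 below, with MYO5A, a vesicle motor, at -0.42 and MYO1C at 0.20. These 9 include MYH14, at 0.09, which is a non-muscle myosin II heavy chain and not an unconventional myosin. In limma without the block these named genes had adjusted p from 0.301 upward.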

How the data were processed

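The authors deposited log2 values per probe set, background-corrected, normalised between arrays and summarised with Expression Console 1.2 of Affymetrix (RMA), according to the submitters' processing notes. Values lay between 0.890 and 13.4. RMA shrinks small signals, so that differences of dim probe sets are understated. No source used here gives scan batches. The platform annotation gave 41091 of 54675 probe sets 1 symbol, 1801 several and 11721 none, beside 62 controls, and only the first kind was used to name genes. The gene IDs of 41037 matched RefSeq (GRCh38.p14).

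Groups and replicate numbers came from the sample titles. Negative minus ambient pressure was fitted over 19775 genes with limma 3.58.1 in R 4.3.3 (lmFit, eBayes, no filter), with Benjamini-Hochberg adjustment over all genes and a threshold of 0.05. This limma fit gives every adjusted p unless another is named. It was tested on simulated data with independent noise on each array. These data held no pairs and no offset of replicate 3, so that test does not cover them. The members and lists were chosen with earlier results of these data known, so list counts are descriptions. With 3 arrays per group, precision is limited by their number.

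Same-numbered arrays had deviations from the group means that correlated at 0.27, 0.27 and 0.53 over all genes, all above 0.1. Over the 45 members the correlations were 0.355, 0.600 and 0.713. On the ground of the all-gene values, same numbers were treated as pairs in the block and in the counts within pairs. The main fit had no block and ignored the pairs. An offset of replicate 3 alone would also raise these values, and the labels name no shared day or batch.

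Values in every array are given for members past the threshold, the 3 most positive and the 3 most negative, and ACTB, ACTA2, MYH9, MYL9, TPM1, CFL1, TAGLN and EZR, with ACTG1 on this list but not measured. From the other lists, genes past the threshold and up to 3 with the smallest p were taken, with SRF and its coactivators added. Of the 5 other lists, 1 entered the counts but is not reported here. Other genes with array values are said to have been singled out. Alternatives were the block, repeated quantile normalisation, cyclic loess, median centring, a filter on low means (13183 genes kept), the mean or most variable probe set of a gene, trend and robust variance, array weights, another threshold, and leaving out arrays. The fit over every probe set was added after seeing the data.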

Additional observations from a re-analysis of the deposited data

How the results depend on the processing

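The count of 0 members past the threshold was the same with the replicate block, quantile normalisation, median centring, cyclic loess, the filter on low means, the mean of probe sets, trend and robust variance, an adjusted p under 0.1 without the block, each array left out in turn (0 to 0) and both replicate 3 arrays left out. It moved with the most variable probe set of each gene, to 1 lower (ACTR3, the probe set at -1.09). It moved with array weights, to 3 lower: MYL12A (-0.39, limma adjusted p = 0.0377), ACTN4 (-0.59, 0.0405) and CALD1 (-0.46, 0.0445), when 5.79% of all genes passed. For the 82 other regulators the count moved from 0 to 2 with the replicate block, 2 with array weights (DIAPH3 in both) and 1 at an adjusted p under 0.1 (DIAPH3). Why was not tested. The median difference of the members ran from -0.05 with the most variable probe set to 0.02 without negative pressure replicate 3, and with each array left out from -0.03 to 0.02. Under median centring it was -0.04. Over all genes the calls numbered 182, 976 with the block, 1145 with array weights, and 7 to 145 with 1 array left out. TPM2 and MYL9 lay at or below the median gene mean.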
